A study of Mus musculus with 1479 samples.

Results

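Cluster 8 of the mouse urinary bladder is a group of fibroblasts that made up 12.3% of 1479 single cells, and its members are the cells whose deposited cluster label is 8. They numbered 51, 35 and 34 on the 3 PdgfrbGFP plates (074s, 515s and 881s), 19 in PdgfraGFP, 18 in C57BL6, 14 in Cspg4dsRED and 11 in Acta2GFP. Cells came from dissociated bladders of adult male mice aged 10 to 20 weeks and carried either a fluorescent reporter (Acta2GFP, Cspg4dsRED, PdgfraGFP or PdgfrbGFP, in which the promoter of the named gene drives the fluorescent protein) or no reporter (C57BL6). No animal received a treatment, each sample is 1 cell in 1 well of a 384-well plate, and cells positive for the endothelial protein CD31 were kept out of the sort. The study gave the cluster numbers from the same expression values, and it also used mice that combined reporters. The comparison throughout is with the 931 cells of clusters 1, 2, 3, 6 and 7, and it was made inside each combination of reporter line and plate. Of 8 such combinations, 7 had at least 10 cells on both sides and entered the test, with 927 comparison cells. The combination left out was Cspg4dsRED on plate 689s, with 4 cells on each side.

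Fibroblasts build and remodel the matrix of connective tissue, and in the bladder wall they lie beneath the urothelium, between bundles of detrusor muscle and around vessels. Fibroblasts that carry Pi16 or Cd34 occur in many organs and are often placed in the outer coat of vessels, whereas others are set apart by the proteoglycans, collagens and growth factor antagonists they secrete. The 3 genes given as markers of cluster 8 all encode secreted proteins: Cilp encodes cartilage intermediate layer protein, a matrix glycoprotein first described in cartilage, Apoe encodes the lipid carrier apolipoprotein E, and Col6a3 encodes the α3 chain of collagen VI, which forms beaded microfibrils around cells.

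The 100 bases before the RefSeq start sites of these 3 genes are given here, on the gene strand of GRCm38.p6, because they are the marker genes of cluster 8 and each was higher there in all 7 combinations. Capitals mark TATAA, the letters of a TATA box, which was searched on both strands together with GGGCGG, the core of an Sp1 site. TATAA occurred in 10.2% and GGGCGG in 24.7% of all 32851 windows of this length. Cilp (chr9:65265080-65265179, plus strand) held TATAA 28 bases before the start, and neither word was present in the windows of Apoe (chr7:19699189-19699288, minus strand) and Col6a3 (chr1:90843972-90844071, minus strand).
Cilp: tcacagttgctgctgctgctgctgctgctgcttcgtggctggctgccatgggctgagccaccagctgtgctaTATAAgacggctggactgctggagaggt
Apoe: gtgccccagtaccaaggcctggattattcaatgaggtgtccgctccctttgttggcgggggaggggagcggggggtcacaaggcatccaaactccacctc
Col6a3: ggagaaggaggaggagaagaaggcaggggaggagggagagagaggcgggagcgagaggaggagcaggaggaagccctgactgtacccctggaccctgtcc

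Cells of cluster 8 were found in every combination of line and plate. They made up 16.4% of the cells of the 6 clusters (exact 95% interval 14.2 to 18.7%), from 10.8% in C57BL6 to 22.9% in PdgfrbGFP on plate 515s. Cspg4dsRED stood higher, with 40% on plate 352s (10 of 25 cells, interval 21.1 to 61.3%) and 4 of 8 cells on plate 689s, but few cells of the 6 clusters came from that line. Over all cells of a combination the share was 5.65% in Cspg4dsRED on plate 352s, the lowest of the 8, and up to 19.1% in PdgfrbGFP on plate 515s. Its 15 comparison cells on plate 352s were 11 of cluster 7, 3 of cluster 2 and 1 of cluster 6, so that clusters 1 and 3 were not represented there. PdgfrbGFP mice gave 65.9% of cluster 8. Total reads per cell of cluster 8 ranged from 53410 to 1064249 with a median of 200763, against a median of 249242 in the comparison. The intervals treat cells as independent draws and leave out variation between animals, lines and plates. Smart-seq2 reads carry no molecular identifiers, so depth is given in reads and not in molecules.

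Fibroblast markers as a sum were about as high in cluster 8 as in the comparison. All cells of cluster 8 had at least 10 reads of a gene from a list of 9 fibroblast markers after thinning to 50000 reads, and the summed level of that list ran from 13840 to 20090 reads per 500000 in cluster 8 and from 14850 to 22180 in the comparison. All comparison cells met this threshold too. Col1a1 alone met it in 49.6% of cells of the mural cluster 10, so the threshold does not separate these cell types. Of the 9 genes, 2 were higher and 4 lower at an unadjusted p under 0.05 (edgeR). Cd34 was among the lower ones. Shares of thinned cells include Cspg4dsRED on plate 689s, which the test left out, and leave out 4 comparison cells under 50000 reads, so their 927 comparison cells are not quite the 927 of the test. A level is given as reads per 500000 reads outside the spike-ins, and it is the mean over the cells that share line, plate and group. Markers of other cell types were lower than the fibroblast markers by far. Before deposit the study had removed cells that expressed neither Pdgfra nor Pdgfrb. It had also removed cells that looked contaminated, for example by endothelial or immune RNA. Low levels of such markers were thus partly set by these steps. Urothelial markers summed to at most 10.8 in cluster 8 and 37.6 in the comparison, Schwann cell markers to at most 7.29 and 36.7, and the adipocyte markers Adipoq, Plin1 and Cidec had no read in cluster 8. Vascular mural markers summed to a median of 140 (62.5 to 657) in cluster 8 and of 95.5 (60.3 to 165.7) in the comparison. Acta2, the smooth muscle actin on this list, was highest in Acta2GFP, at 392 reads per 500000 in cluster 8 and 81.5 in the comparison. A gene of the mural list reached 10 thinned reads in 34.1% of cells of cluster 8 and in 23.7% of comparison cells. Des, the muscle filament protein desmin, did so in 13.7% and 7.01%, and in 88% of cells of the mural cluster 10. Myh11, the smooth muscle myosin heavy chain, did so in 0.549% of cluster 8, in no comparison cell and in 95.2% of cluster 10, and Cspg4, which pericytes use, in 1.10%, 0.647% and 76.8%. Visceral smooth muscle markers had a median sum of 44.95 (7.81 to 123.8) in cluster 8 and 33.3 (4.69 to 42.8) in the comparison, and reached 10 reads in 15.4% and 11.1% of cells. Its members went different ways: Actg2, a smooth muscle actin, reached 10 reads in 1.10% of cluster 8 and 4.53% of the comparison and Cnn1, calponin, in 0.549% and 1.94%, with log2 fold changes of -2.69 and -2.47, whereas Synpo2, synaptopodin 2, had 0.89. Endothelial markers had median sums of 91.1 and 61.6 (29.1% and 18% of cells), and immune markers of 15.2 and 10.2 (4.95% and 2.37%). These 4 lists (mural, visceral smooth muscle, endothelial and immune) were thus found in a larger share of cells in cluster 8. In the pooled comparison no gene of them was called, and the median log2 fold changes of their tested genes were 0.36, -2.47, 0.21 and -0.90 in the same order. Flt1 of the endothelial list was called higher against 4 of the 5 clusters taken singly. The part of these lists in the gene differences was not tested.

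Against the 5 clusters pooled, Cilp, Apoe and Col6a3 were higher in cluster 8 in all 7 combinations of line and plate, and Pi16, Cd55 and Npy1r were lower in all 7. The last 3 were named by a rule that asks for this. Of 13037 genes tested with edgeR's quasi-likelihood test, 10 were called higher and 10 lower (adjusted p under 0.05 and at least a doubling or halving), which is 0.0767% in each direction. Since the clusters were drawn from these same values, such p-values say how evenly a difference recurs over lines and plates and are no evidence for the cluster. The labels name no animal, so lines and plates stand in for independent samples on assumption. The median gene lay at a log2 fold change of -0.31, and with that median set to 0 the calls became 47 higher and 8 lower. Leaving out Cspg4dsRED gave 51 calls and leaving out PdgfrbGFP on plate 881s gave 3, the widest values of the leave-one-out series. Cilp and Apoe kept their calls whichever combination was left out, and each other gene called lost its call in at least 1, most often without C57BL6 or without PdgfrbGFP on plate 881s.

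Cilp lies on chromosome 9 (65265180 to 65280605, GRCm38). Its level in cluster 8 ran from 333.5 to 769 reads per 500000 over the 7 combinations with a median of 383, and in the comparison from 18.8 to 76.8 with a median of 42.1. The ranges did not overlap. The mean was 466.2 ± 172.2 (SD, n = 7) against 47.5 ± 22.3, a log2 fold change of 3.41 (SE 0.32, adjusted p = 0.00249). Cilp was not shared evenly among the cells: 74 cells of cluster 8 (40.7%, interval 33.5 to 48.2%) held at least 10 thinned reads, against 10.4% of comparison cells and no cell of the mural cluster 10, which allows a share of up to 2.4% there. The share ran from 26.3% in PdgfraGFP to 50% in C57BL6 and in Cspg4dsRED on plate 352s, and all 4 cells of Cspg4dsRED on plate 689s, which the test left out, had it.

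Apoe on chromosome 7 (19696109 to 19699188) ran from 250.5 to 1702 reads per 500000 in cluster 8 (median 787) and from 74.8 to 561 in the comparison (median 230). These ranges overlapped, with C57BL6 lowest and Cspg4dsRED highest on both sides, yet within each combination cluster 8 was higher. Among the comparison cells cluster 7 was the most numerous in Cspg4dsRED (11 cells) and cluster 3 in C57BL6 (71 cells), so the line, the plate and the mix of clusters cannot be told apart in these levels. The log2 fold change was 1.78 (SE 0.14, adjusted p = 0.000877). Most cells carried it: 83% of cluster 8 had at least 10 thinned reads, against 41.5% of the comparison.

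Col6a3 on chromosome 1 (90765923 to 90843971) ran from 290 to 959 reads per 500000 in cluster 8 (median 352) and from 68.9 to 140 in the comparison (median 104.7). The groups did not overlap, and Acta2GFP held the highest value of cluster 8. Its log2 fold change was 1.87 (SE 0.23, adjusted p = 0.0109), with an adjusted p of 0.0508 when C57BL6 was left out. At least 10 thinned reads were found in 72.5% of cells of cluster 8 and in 31.9% of comparison cells.

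**Figure D1:**
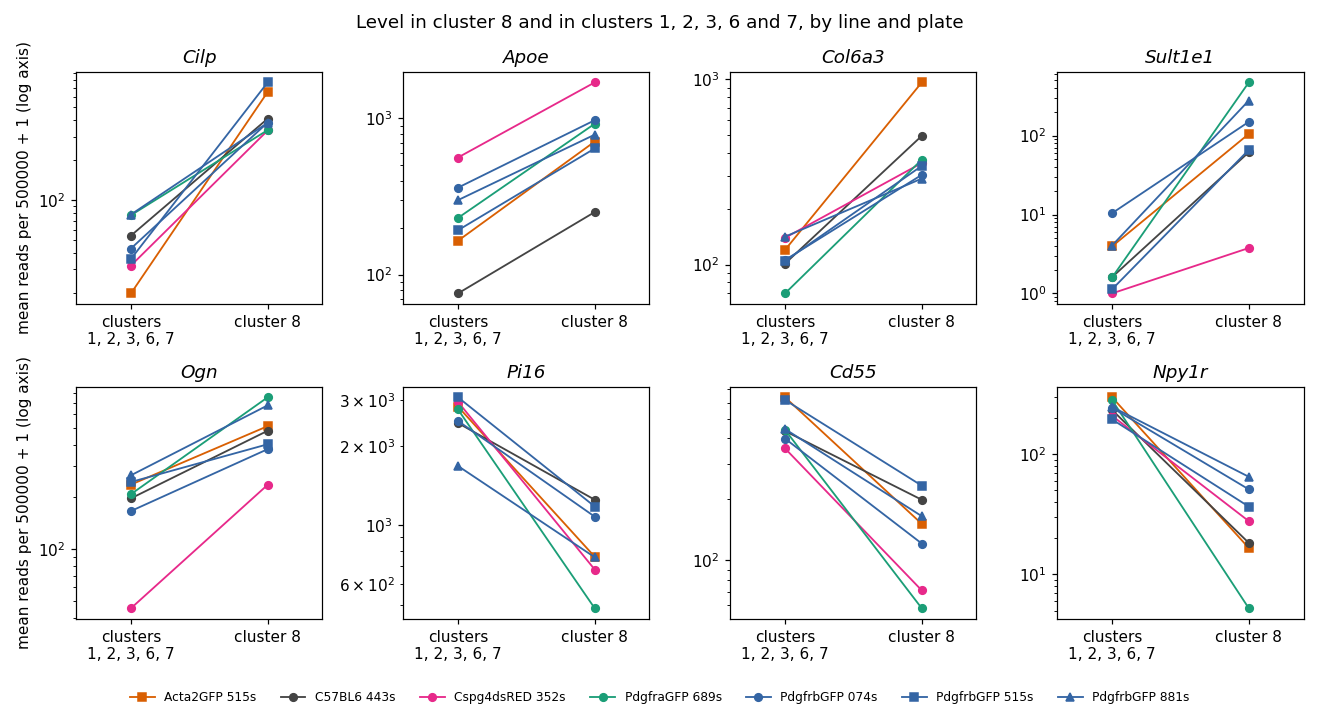
Mean level (reads per 500000 plus 1, log axis) of 8 genes in the comparison clusters (left) and in cluster 8 (right), where each line joins the values of 1 reporter line and plate. Cilp, Apoe, Col6a3, Sult1e1 and Ogn rise to the right in all 7 combinations and Pi16, Cd55 and Npy1r fall in all 7; the Sult1e1 line of Cspg4dsRED ends at 2.76 reads.

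Outside the comparison the markers were less particular to cluster 8. Mean Cilp was 619 ± 461 reads per 500000 over 8 combinations with at least 3 cells of cluster 8 and 563 ± 582.3 over 2 such combinations in cluster 9, while cluster 6 (172.2 ± 44.7) was the nearest of the comparison clusters. Col6a3 was highest in cluster 5, at 1069 ± 315.9, with 486 ± 250 in cluster 8 and 463 ± 179.5 in cluster 11. Apoe was 841 ± 411 in cluster 8, followed by 497 ± 232.7 in cluster 1 and 426 ± 203.1 in cluster 7, and these spreads overlapped.

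Among the other genes called higher, Sult1e1 had the largest change and was carried by a minority of cells. Sult1e1, which encodes the sulfotransferase that inactivates estrogens, ran from 2.76 to 471 reads per 500000 in cluster 8 (median 104.1) and from 0 to 9.39 in the comparison. Every combination was higher in cluster 8, but Cspg4dsRED at 2.76 fell within the range of the comparison. The log2 fold change was 6.85 (SE 0.86, adjusted p = 0.0109), and 51 cells had at least 10 thinned reads (28%, interval 21.6 to 35.1%), against 0.539% of the comparison. The adjusted p was 0.0581 without C57BL6 and 0.0706 without PdgfrbGFP on plate 881s. By line this share ran from 0 of 10 cells in Cspg4dsRED on plate 352s to 57.9% in PdgfraGFP.

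The remaining calls higher in cluster 8 were Pdlim4, Fhl2, Abcc9, Sfrp1, Ogn and Pcsk5. Pdlim4, a PDZ and LIM domain protein of actin filaments, ran from 18.01 to 113.8 reads per 500000 in cluster 8 and from 0.611 to 3.43 in the comparison (log2 fold change 4.96, SE 0.61). Fhl2, a LIM domain adaptor, had means of 124.4 and 33.4. Abcc9, the sulfonylurea receptor subunit of ATP-sensitive potassium channels, had means of 140.7 and 39.2 and did not overlap between the groups. Sfrp1, a secreted Wnt antagonist, ran from 131.3 to 353 in cluster 8 and from 37.7 to 126.01 in the comparison (log2 fold change 1.62), but cluster 6 by itself had as much. Ogn, which encodes the small proteoglycan osteoglycin, had means of 491 and 193.3 (log2 fold change 1.47). Pcsk5, a proprotein convertase, was also called higher, yet it was lower in PdgfraGFP (63.7 against 71.2) and is named here after its values were seen. Calls of Fhl2 and Sfrp1 were lost without C57BL6 (adjusted p = 0.0545 and 0.0508), that of Fhl2 also without PdgfrbGFP on plate 515s (0.0548), that of Pdlim4 without plate 074s (0.0521), and those of Fhl2, Sfrp1 and Pdlim4 without plate 881s (0.0706 each). Abcc9, Ogn and Pcsk5 were called only with all 7 combinations or without Cspg4dsRED, and elsewhere their adjusted p reached 0.163, 0.157 and 0.178.

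The genes called lower included surface or secreted proteins that mark adventitial fibroblasts. Pi16, peptidase inhibitor 16, on chromosome 17 (29317680 to 29330593), ran from 483 to 1249 reads per 500000 in cluster 8 (median 758) and from 1679 to 3062 in the comparison (median 2753), with a log2 fold change of -1.41 (SE 0.19, adjusted p = 0.0165). Cd55, the decay-accelerating factor that limits complement on the cell surface, ran from 57.1 to 232.9 and from 356 to 637 (log2 fold change -1.88, SE 0.29, adjusted p = 0.0361). Neither gene overlapped between the groups, and neither was absent: 84.1% and 42.9% of cells of cluster 8 kept at least 10 thinned reads of Pi16 and Cd55. An antisense gene, Gm16083, overlaps exons of Cd55, and without strand information their reads cannot be told apart. Leaving out 1 combination raised the adjusted p to at most 0.0706 for Pi16, which lost its call without Acta2GFP or any PdgfrbGFP plate, and to at most 0.119 for Cd55, which kept it only without PdgfraGFP.

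Npy1r, a receptor for neuropeptide Y, ran from 4.23 to 63.8 reads per 500000 in cluster 8 and from 193.3 to 295.5 in the comparison (log2 fold change -3.09, SE 0.47, adjusted p = 0.0333). Serpina3g, an intracellular serine protease inhibitor, ran from 0.384 to 14.6 and from 14.9 to 123.6 (log2 fold change -4.57). Dmkn, dermokine, had means of 0.597 and 17.9. Plxdc2, a transmembrane protein with a plexin domain, had means of 171.8 and 461, Akap12, an anchor for protein kinase A, 127.8 and 312.3, and Spon2, the matrix protein spondin 2, 234.6 and 574. Being lower than the pooled comparison in each of the 7 combinations was part of the rule that named these 6 genes, and 4.00% of all genes tested were so. Of the 6 only Spon2 overlapped between the groups, and the share of all genes without overlap was not counted. By mean level the other 5 were also below each of the 5 clusters singly, and Spon2 was not. Raet1d, a ligand of an activating receptor of natural killer cells, was also called lower, with levels under 5 reads per 500000 on both sides, and is named after its values were seen. Without 1 combination the adjusted p rose to at most 0.0706 for Serpina3g and Plxdc2, 0.126 for Npy1r, 0.132 for Akap12, 0.119 for Spon2 and 0.191 for Dmkn. PdgfrbGFP on plate 881s was among the combinations whose absence ended the call of each of these 6 genes.

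**Figure D2:**
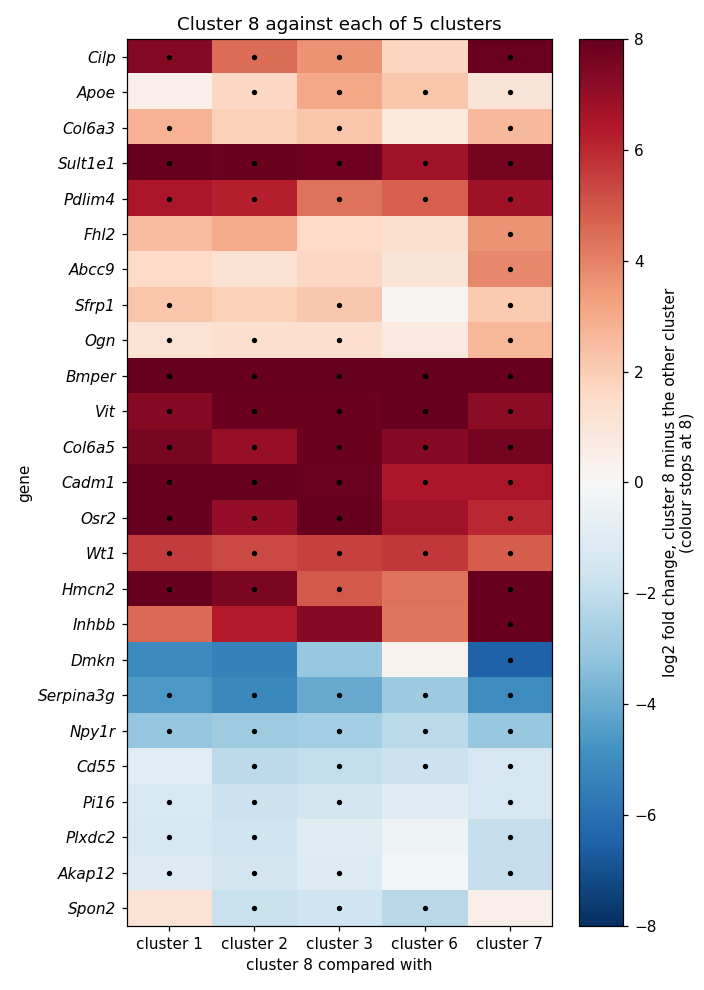
Log2 fold change of cluster 8 minus each of clusters 1, 2, 3, 6 and 7 (columns) for 25 genes (rows), with red for higher and blue for lower in cluster 8, colour limited to 8, and a dot for an adjusted p under 0.05 with at least a doubling or halving. Sult1e1, Pdlim4, Bmper, Vit, Col6a5, Cadm1 and Wt1 carry dots against all 5 clusters, and Npy1r and Serpina3g do so among the lower genes.

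In 1 fit with all 6 clusters, the fewest genes were called between cluster 8 and cluster 6 and the most against clusters 2 and 7. Of 14486 genes tested, 60 were called against cluster 6 (0.414%), of which 47 were higher. The share called was 0.718% against cluster 3 (67 higher and 37 lower), 0.891% against cluster 1 (91 and 38), 2.16% against cluster 7 and 2.21% against cluster 2. These shares are counts and were not tested against each other, and their order turned without PdgfrbGFP on plate 881s, to 0.173% against cluster 3, 0.187% against cluster 6, 0.346% against cluster 2 and 0.403% against cluster 1. Cluster 2 held the shallowest cells, with a median of 113371 reads, and it entered in 4 combinations. Col6a3 rose against clusters 1, 3 and 7 but had log2 fold changes of 1.92 (adjusted p = 0.068) against cluster 2 and 0.81 (adjusted p = 0.81) against cluster 6. Cilp was called against clusters 1, 2, 3 and 7 with log2 fold changes from 3.58 to 7.91, and its change against cluster 6 was 1.70 (adjusted p = 0.36). Apoe was called against clusters 2, 3, 6 and 7, and its change against cluster 1 was 0.39 (adjusted p = 0.79).

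Several genes that differed from the pooled clusters did not stand apart from single clusters, as their mean levels over combinations with at least 3 cells show. Sfrp1 had 189.7 ± 99 reads per 500000 in cluster 8 and 197.4 ± 74 in cluster 6 (log2 fold change in the joint fit 0.16, adjusted p = 0.998), and it was called against clusters 1, 3 and 7. Spon2 had 208.6 ± 108.5 in cluster 8, 210.8 ± 104.6 in cluster 7 and 116.97 ± 88.6 in cluster 1, and it was called lower against clusters 2, 3 and 6 only. Dmkn had 0.522 in cluster 8 and 0.814 in cluster 6 and was called against cluster 7 only. Plxdc2 and Akap12 were not called against cluster 6 (log2 fold changes -0.42 and -0.16), and neither was Ogn (0.75). Pcsk5 had 137.7 ± 73.1 in cluster 8 and 126.02 ± 45.02 in cluster 6 and was called against clusters 1 and 7. Cd55 was called against 4 clusters and had a log2 fold change of -0.87 (adjusted p = 0.138) against cluster 1. Pi16 fell against clusters 1, 2, 3 and 7 by at least a halving, and against cluster 6 (adjusted p = 0.0185) it fell just short of one.

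For genes that were not called in the pooled comparison, the pooled level also hid single clusters on the same side as cluster 8 or close to it. Fbln2, a fibulin, had 453 reads per 500000 in cluster 8, 330.8 in cluster 2 and 205.99 in cluster 1. Kcnn3 had 100.9, with 80.04 in cluster 1 and 44.6 in cluster 7, and Edn3 had 18.9, with 23.6 in cluster 7. Stc2 had 101.1, with 33.8 in cluster 7, and Tgfbr2 350.5, with 323.04 in cluster 2. On the higher side Btg2 had 301.6 in cluster 8 and 341.4 in cluster 6, Thbs1 had 132.3 and 119.6, and Dcn had 4181 in cluster 8 and 4950 in cluster 2.

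The genes called higher against all 5 clusters were Bmper, Cadm1, Col6a5, Kit, Mapk13, Pdlim4, Sult1e1, Vit and Wt1, which are 9 in all. Bmper, Cadm1, Col6a5, Kit and Wt1 passed the filter on low counts only through their sums in cluster 8, so they had to differ and their calls carry no weight of their own. The other 4 also passed it in the sums of the comparison clusters. Kit, the receptor for stem cell factor, and Mapk13, a p38 kinase, had means under 10 reads per 500000 and are named because they are in this count. Apart from Sult1e1 and Pdlim4, these genes were found in few cells. Vit, the matrix protein vitrin, had at least 10 thinned reads in 12.1% of cells of cluster 8 and 1.08% of comparison cells. Col6a5, another chain of collagen VI, did so in 13 cells (7.14%, interval 3.86 to 11.9%) and in 0 of 927 cells of the comparison, which allows a share of up to 0.324%. All 13 Col6a5 cells came from PdgfraGFP (5 cells) or PdgfrbGFP mice. Bmper, which binds BMPs outside the cell, reached 10 reads in 5.49% of cells, Cadm1, a cell adhesion molecule, in 3.85%, and the transcription factor Wt1 in 4.40%.

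A further 3 genes were among the 10 with the largest smallest change over the 5 comparisons. They were picked for this change, and whether they passed the filter on low counts without cluster 8 was not checked. Their calls thus carry no weight of their own. Hmcn2, which encodes a hemicentin of the matrix, ran from 7.64 to 155.2 reads per 500000 in cluster 8 and from 0 to 9.37 in the comparison. It was called against 4 clusters, and against cluster 6 its log2 fold change was 4.35 (adjusted p = 0.11). Osr2, an odd-skipped transcription factor, had a median of 5.11 reads, with PdgfraGFP far above the rest at 121.97. Inhbb, a subunit of activin and inhibin, had means of 18.2 ± 22.3 and 1.34 ± 1.68, and it was called against cluster 7 only. Npy1r and Serpina3g were called lower against all 5 clusters, with log2 fold changes from -3.12 to -2.14 for Npy1r and from -5.18 to -2.90 for Serpina3g. Outside the 5 clusters some of these genes were as high as in cluster 8 or higher. Hmcn2 had a mean of 118.7 over 2 combinations in cluster 9 and 114.1 in cluster 8. In the 1 combination with at least 3 cells of cluster 4, Pdlim4 stood at 334.2 and Vit at 265.6, against means of 53.1 and 40.4 in cluster 8.

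Gene lists were read against all genes tested, of which 2.13% were higher and 5.65% lower at an unadjusted p under 0.05, 1.27% were higher in all 7 combinations and 4.00% lower in all 7. Matrix genes first. Of 12 small leucine-rich proteoglycans tested, which bind collagen fibrils, 1 was called higher (Ogn) and 7 had an unadjusted p under 0.05 on the higher side, with none on the lower side and a median log2 fold change of 0.55. Aspn, asporin, ran from 52.1 to 122.3 reads per 500000 in cluster 8 and from 13.9 to 51.3 in the comparison, without overlap (log2 fold change 1.47, adjusted p = 0.0545), but its mean was 77.5 ± 24.8 in cluster 8 and 72.1 ± 40.5 in cluster 6. Fmod, fibromodulin, ran from 132.2 to 619 and from 0.218 to 93.7 (log2 fold change 3.02, adjusted p = 0.325). Of the 5 comparison clusters, cluster 1 (269.5 ± 196.6) was the nearest to cluster 8 (372.7 ± 216.3), and cluster 5 outside them had 451.8 ± 303.88. Dcn, decorin, differed by only 0.25 on the log2 scale (SE 0.06, adjusted p = 0.196) and was higher in all 7 combinations.

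Of 9 tested genes of cartilage and tendon matrix, Cilp was called and 3 had an unadjusted p under 0.05 on the higher side, and the median log2 fold change was 1.57. Angptl7, a secreted angiopoietin-like protein, ran from 108.2 to 341.8 reads per 500000 in cluster 8 and from 0.202 to 70.2 in the comparison, without overlap (log2 fold change 2.75, adjusted p = 0.145). Cpxm2, a carboxypeptidase-like protein, had means of 15.9 ± 20.6 and 1.71 ± 1.86.

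Of the 3 chains of collagen VI tested, Col6a3 was called and the others stayed close. Col6a1 had means of 1248 ± 282.98 and 1057 ± 246.8 (log2 fold change 0.29, adjusted p = 0.325) and was higher in all 7 combinations, whereas Col6a2 had means of 1366 ± 476 and 1318 ± 360. None of 6 fibrillar collagens had an unadjusted p under 0.05: Col1a1 had means of 3035 ± 505 and 3593 ± 879, and Col3a1 had means of 2716 ± 807 and 2537 ± 688. Among 13 other collagens, Col8a2, a short-chain collagen, ran from 12.7 to 41.3 and from 0 to 9.64 without overlap, and Col4a4, a basement membrane chain, had means of 50.7 ± 40.97 and 7.34 ± 5.12, neither of them called (adjusted p = 0.457 and 0.442). Cluster 6 had as much Col8a2 as cluster 8 within the spread (20.1 ± 16.7 and 22.9 ± 13.9).

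Of 18 elastic fibre genes tested, none was called, 3 had an unadjusted p under 0.05 on the higher side and 5 on the lower side. Mfap2, a microfibril glycoprotein, had means of 247.5 ± 98.1 and 108.97 ± 42.2 (log2 fold change 1.04, adjusted p = 0.0693). Fbln5, which helps assemble elastin, had means of 402 ± 120 and 651 ± 123.7 (log2 fold change -0.69, adjusted p = 0.149), and Fbln2, another fibulin, had means of 406 ± 194.9 and 671 ± 230.8. Fbln7 had means of 31.9 ± 30.01 and 2.25 ± 3.72.

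Universal adventitial fibroblast markers included 2 of the calls on the lower side. All 20 were tested, Pi16 and Cd55 were called, 12 had an unadjusted p under 0.05 on the lower side and 1 on the higher side, and 10 were lower in all 7 combinations. Their median log2 fold change was -0.66, against -0.31 for all genes, and it was -0.35 with the median gene set to 0. Cd34, a sialomucin of the cell surface, had means of 646 ± 199.2 and 1184 ± 291.6 (log2 fold change -0.74, SE 0.11, adjusted p = 0.0307) and fell short of a halving. Cd248, endosialin, had means of 417 ± 205.4 and 883 ± 218.2 (log2 fold change -1.16, adjusted p = 0.0842). In both groups nearly all cells kept Cd34, with at least 10 thinned reads in 93.4% of cluster 8 and in 98.6% of the comparison.

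**Figure D3:**
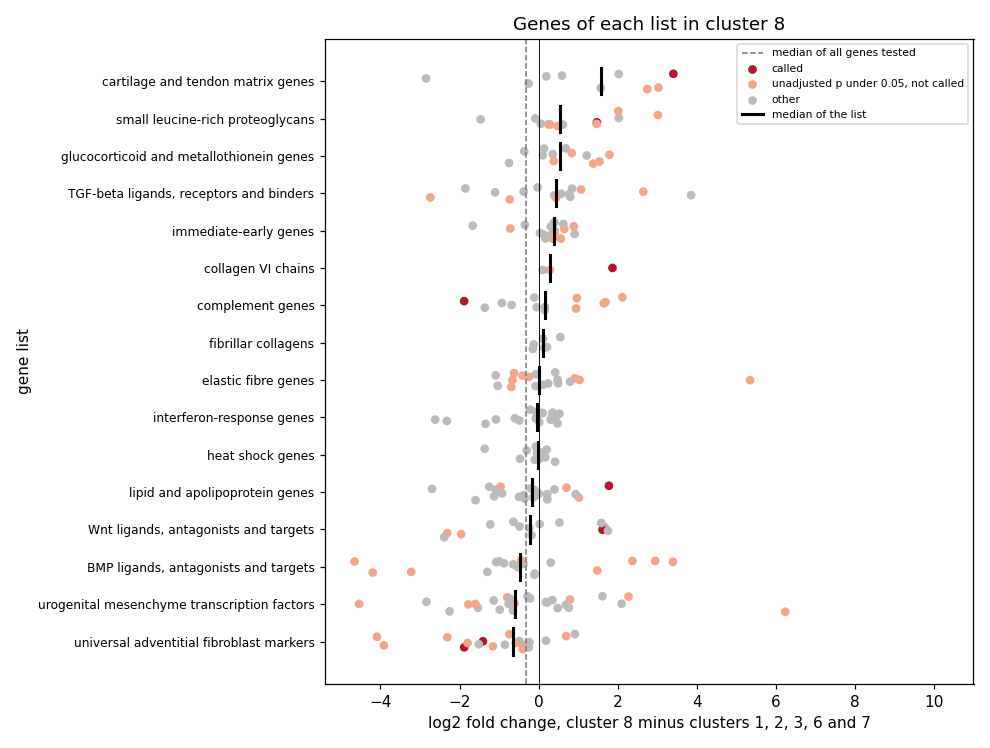
Log2 fold change of cluster 8 minus the pooled comparison for each tested gene (points) of 16 lists (rows), with a bar at each list's median and a dashed line at the median of all genes, -0.31. Cartilage and tendon genes (median 1.57) and small leucine-rich proteoglycans (0.55) lie to the right, and universal adventitial markers (-0.66) to the left.

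None of 18 genes of the BMP list was called in the pooled comparison, with 4 on each side at an unadjusted p under 0.05. Gdf10, a BMP and TGF-β family member, ran from 489 to 1959 reads per 500000 in cluster 8 (median 616) and from 2.01 to 169.01 in the comparison (median 84.5), without overlap (log2 fold change 3.40, SE 0.58, adjusted p = 0.0529). It was called in 11 of 19 alternatives, whose adjusted p ran from 2.91e-07 to 0.192. The joint fit called Gdf10 higher against 4 of the 5 clusters. Bmp3, an antagonistic BMP, ran from 0 to 3.21 and from 9.78 to 30.3 (adjusted p = 0.0834), while clusters 2 and 6 were as low (means of 0.553 and 0.61 against 0.811 in cluster 8). Chrdl1, a secreted BMP antagonist, had means of 62.4 ± 25.97 and 16.4 ± 9.92, and Fstl1, follistatin-like 1, had means of 622 ± 204.6 and 850 ± 278.6.

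Among 14 Wnt genes, Sfrp1 was called higher, and the ligands Wnt2 and Wnt2b were not called. Wnt2 ran from 12.9 to 87.8 reads per 500000 in cluster 8 and from 124.8 to 502 in the comparison, and Wnt2b from 0.542 to 11.7 and from 17.8 to 44.7, both without overlap (adjusted p = 0.149 and 0.547). Cluster 6 was as low in both, with means of 23.6 ± 16.7 and 6.28 ± 6.75 against 40.9 ± 31.4 and 5.60 ± 4.30 in cluster 8, and Wnt2b was lowest in cluster 2 among the 6 clusters (1.98). None of 13 insulin-like growth factor genes was called in the pooled comparison, though the joint fit called Igf1 higher against 4 of the 5 clusters. Igf1, the growth factor itself, had means of 298.5 ± 162.9 and 89.01 ± 27.5 and was higher in all 7 combinations (log2 fold change 1.44, adjusted p = 0.111), and Stc2, a stanniocalcin, had means of 110 ± 29.04 and 248.1 ± 72.2 (adjusted p = 0.0778).

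TGF-β genes held no call in the pooled comparison among 15 tested, with 3 on the higher and 2 on the lower side at an unadjusted p under 0.05. The joint fit called Thbs1 of this list higher against 4 of the 5 clusters. Thbs1, thrombospondin 1, which activates latent TGF-β, had means of 151.1 ± 71.1 and 35.2 ± 33.6 and was higher in 6 of 7 combinations. Tgfbi, a TGF-β induced matrix protein, had means of 395 ± 159.1 and 195.7 ± 77.8, and the receptor Tgfbr2 had means of 307.6 ± 126.9 and 557 ± 221.5 (adjusted p = 0.0957). For Hedgehog response genes, 12 were tested and none was called; the co-receptor Gas1 had means of 583 ± 238.1 and 330 ± 88.1 (adjusted p = 0.0693), was lower in Cspg4dsRED alone and had as much in cluster 6 (614 ± 166.7) as in cluster 8 (573 ± 222.4).

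Complement genes included 1 call among 13 tested, Cd55. C3, the central complement protein, ran from 428 to 1581 reads per 500000 in cluster 8 and from 88.7 to 362 in the comparison, without overlap (log2 fold change 1.69, SE 0.33, adjusted p = 0.0957). C2 had means of 114.8 ± 93.9 and 30.3 ± 9.12, but shares exons with Gm20547, so its reads are uncertain. Of 22 lipid genes tested, Apoe was called. Pltp, phospholipid transfer protein, had means of 486 ± 318.2 and 939 ± 260.9 (log2 fold change -0.96, adjusted p = 0.0802) and overlaps Ctsa on the opposite strand.

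Glucocorticoid and stress genes held no call. Of 12 glucocorticoid-induced and metallothionein genes, 5 had an unadjusted p under 0.05 on the higher side and none on the lower side, with a median log2 fold change of 0.54. Sgk1, a kinase induced by glucocorticoids, had means of 121.1 ± 47.2 and 39.7 ± 12.5 (adjusted p = 0.111), and Mt2, a metallothionein, 42.8 ± 18.6 and 12.8 ± 7.03. Immediate-early genes, which dissociation of tissue can induce, had 5 of 19 genes on the higher and 1 on the lower side at an unadjusted p under 0.05; Btg2 had means of 287.7 ± 130 and 156.3 ± 74.5, and Klf4 had 95.3 ± 16.7 and 168.3 ± 46.3. No gene of 14 heat shock and 21 interferon-response genes had an unadjusted p under 0.05.

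Transcription factors of urogenital mesenchyme (27 tested) held no call, with 3 on the higher and 5 on the lower side at an unadjusted p under 0.05. Osr1, the paralogue of Osr2, ran from 118.7 to 196.8 reads per 500000 in cluster 8 and from 217.3 to 568.3 in the comparison, without overlap (log2 fold change -0.79, adjusted p = 0.17), and cluster 6 by itself was as low (174.5 ± 62.2 against 192.5 ± 61.7 in cluster 8). Tbx20 ran from 0 to 2.94 and from 3.73 to 36.4. Genes of endothelin and neural signalling (21 tested) also held no call. Edn3, endothelin 3, had means of 21.6 ± 25.4 and 123.8 ± 49.3 (adjusted p = 0.148), and Kcnn3, a small-conductance potassium channel, had means of 95.3 ± 57.7 and 225.4 ± 92.1 (adjusted p = 0.25).

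On the endothelial list 2 VEGF receptors were higher at an unadjusted p under 0.05 and not called in the pooled comparison. The joint fit called Flt1 higher against 4 of the 5 clusters, but whether it passed the filter on low counts without cluster 8 was not checked. Kdr had means of 21.9 ± 15.7 and 3.08 ± 2.72 (adjusted p = 0.152) and Flt1 had means of 29.03 ± 31.3 and 2.67 ± 2.48 (adjusted p = 0.445). Their summed list ran from 18.5 to 132.3 in cluster 8 and from 42.6 to 72.4 in the comparison, and Pecam1, which encodes the CD31 used to exclude cells, reached 10 thinned reads in 0.549% of cluster 8 and 0.216% of the comparison. The part of endothelial RNA in the Kdr and Flt1 values was not tested.

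Within cluster 8, Gdf10, Cilp, Fmod and Sult1e1 were carried by overlapping but unequal sets of cells. Gdf10 reached 10 thinned reads in 63.7% of cells, Cilp in 40.7% (74 cells), Fmod in 38.5% (70 cells) and Sult1e1 in 28% (51 cells). Gdf10 and Fmod were not called in the pooled comparison. The Fmod share was near that of the comparison in PdgfrbGFP on plate 074s (19.6% against 18.2%) and in Acta2GFP (18.2% against 19.4%). It was above the comparison in every other combination. Of the 74 Cilp cells, 58 also had Gdf10 (78.4%) and 34 had Fmod (45.9%), whereas of the 51 Sult1e1 cells, 43 had Gdf10 (84.3%) and 12 had Fmod (23.5%). Of the 4 genes, 20 cells of cluster 8 had none (11.0%), 63 had 1, 55 had 2, 38 had 3 and 6 had all 4. In the comparison 579 of 927 cells had none (62.5%), 7 had 3 and 0 had all 4. Of the 13 Col6a5 cells, 10 had Sult1e1 and 2 had Cilp, and of the 27 Hmcn2 cells 19 had Cilp. These counts pool lines and plates and carry no test. The genes were picked with their high levels in cluster 8 known, so the contrast with the comparison was set in advance.

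The spread over cells was wide for Cilp, with a median cell at 10.8 reads per 500000 and an upper quartile at 735, while the comparison had an upper quartile at 9.21. Gdf10 had a median cell at 400 and an upper quartile at 1203 in cluster 8, and a median of 6.605 in the comparison. For Pi16 the cell at the 10th percentile held 55.2 reads in cluster 8 and 1083 in the comparison, the median cell 750 and 2274, and the cell at the 90th percentile 1877 and 4063. The share of cells of cluster 8 with at least 10 thinned reads of Pi16 was 42.1% in PdgfraGFP and 63.6% in Acta2GFP, and all 51 cells of PdgfrbGFP on plate 074s had them.

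**Figure D4:**
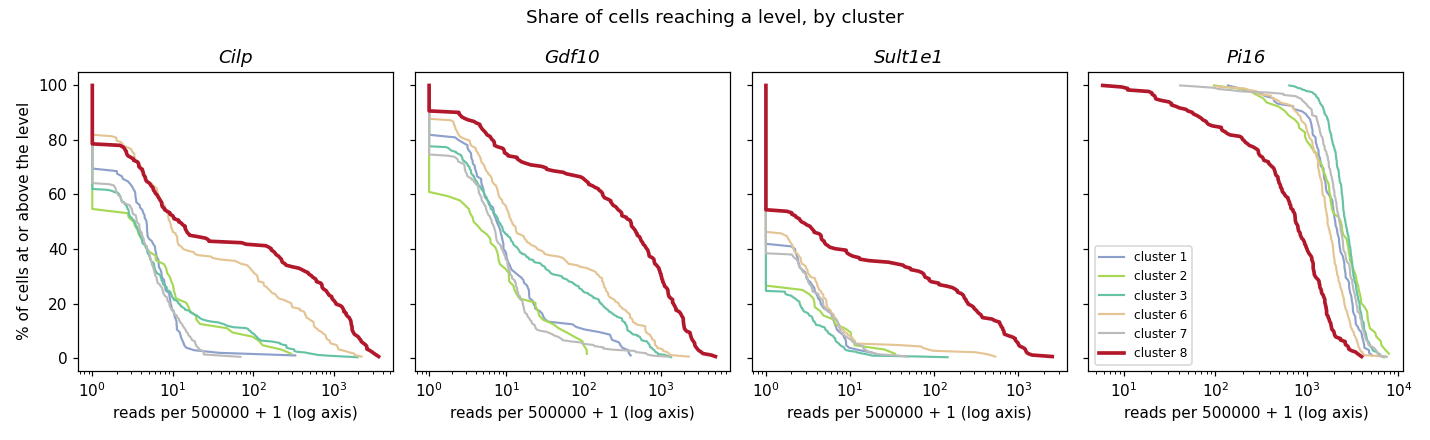
Share of cells (vertical axis, %) at or above a level (horizontal axis, reads per 500000 plus 1, log scale) for 4 genes, with 1 curve per cluster and cluster 8 in dark red. For Cilp, Gdf10 and Sult1e1 the curve of cluster 8 keeps a long upper tail, with cluster 6 next for Cilp and Gdf10, and for Pi16 it lies to the left of the other 5 clusters.

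Library measures were compared over the same 7 combinations with an exact two-sided sign-flip permutation test, whose smallest p is 0.0156. At 50000 reads, cells of cluster 8 showed fewer genes in all 7 combinations, with a mean difference of -237.9 ± 106.4 (SD, n = 7; exact p = 0.0156, adjusted p = 0.0781 over 5 measures). Reads from the cell per ERCC spike-in read were lower in 6 of 7, with a mean difference of -0.29 ± 0.28 on the log2 scale (exact p = 0.0469, adjusted p = 0.0781), and the ERCC share was higher in 6 of 7 (exact p = 0.0312, adjusted p = 0.0781). Total reads differed by -0.17 ± 0.17 on the log2 scale (exact p = 0.0625, adjusted p = 0.0781) and the mitochondrial share by -0.041 ± 0.113 percentage points (exact p = 0.516). No measure passed 0.05 after adjustment, but with combinations of at least 3 cells the number of genes, the reads per ERCC read and the ERCC share did (adjusted p = 0.0391 each, exact permutation test). With the line as the unit the same 3 had adjusted p of 0.156, 0.234 and 0.208 (exact permutation test). With 5 lines this test allows no p below 0.0625, so none could pass 0.05. Their part in the gene differences was not tested beyond thinning all cells to equal depth, which gave 46 calls among 10722 genes tested in place of 20 among 13037, with 16 genes in both. The highest number of genes in a cell of cluster 8 was 9581, and the study had removed cells with very many genes as possible doublets before deposit.

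Whether the differences changed with the line was tested as an interaction, with the 3 PdgfrbGFP plates against the other 4 combinations. Of 13037 genes none was called (edgeR, smallest adjusted p = 0.465), and 465 had an unadjusted p under 0.05.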

How the data were processed

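Raw read counts per gene for 1479 bladder cells and 92 ERCC spike-ins were deposited by the authors, who mapped Smart-seq2 reads to GRCm38 with TopHat2 and counted them with featureCounts; a strand setting is not given in the sources used here. Symbols and positions came from GENCODE M21 (46005 of 46517 identifiers). Counts were summed per reporter line, plate and arm (at least 10 cells; at least 5 per cluster in the joint fit) and tested with edgeR 4.0.16 (R 4.3.3; TMM, filterByExpr, quasi-likelihood, line and plate as block, Benjamini-Hochberg over all genes). A gene was called at adjusted p under 0.05 with a log2 fold change of at least 1 in size. Shares used cells thinned at random to 50000 reads, which left out 4 comparison cells; intervals are Clopper-Pearson 95%, and 0 counts allow 3. Named genes were the 3 markers, called genes changed alike in all 7 combinations with a level of at least 10, the 10 genes with the largest smallest change over the 5 clusters, and up to 4 of smallest p per list. Results that need items withheld here are not reported here. Members and lists were chosen with earlier results of these data known. Alternatives used DESeq2 1.42.0 and limma 3.58.1. Scripts were tested on simulated data. Python 3.11.15, numpy 2.4.6, scipy 1.17.1, matplotlib 3.10.9 and pandas 2.3.3 made the tables and plots.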

Additional observations from a re-analysis of the deposited data

Results flagged for a closer look

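Over 7 combinations of line and plate, the named genes and library measures were searched for a combination that stood apart from the others by Dixon's gap criterion, which chance meets in about 1 of 20. Of 99 values searched, 15 met it. Most of those found were Cspg4dsRED on plate 352s, with 10 cells of cluster 8 and 15 comparison cells, 11 of them of cluster 7. Values are log2 differences of cluster 8 minus the comparison after adding 1 read. In this combination Fmod stood at 8.92 (others 0.571 to 3.4), Gdf10 at 7.86 (2.54 to 4.31), Angptl7 at 6.51 (1.33 to 3.15), Abca8a, a lipid transporter, at 4.36 (-0.153 to 1.17), and Chrdl1 at 4.36 (1.31 to 2.6). Btg2 stood at 2.32 (0.139 to 1.03) and Col1a2, a collagen I chain, at 0.908 (-0.322 to 0.144). On the lower side Cd34 stood at -1.52 (-0.986 to -0.59) and Gas1 at -0.306 (0.53 to 1.07).

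Elsewhere, Tgfbr2 stood at -1.52 in PdgfrbGFP on plate 515s (others -0.906 to -0.486), and Actg2, a smooth muscle actin, at 0.536 in Acta2GFP (-2.35 to -1.18). PdgfraGFP on plate 689s stood apart for Raet1d at -0.598 (-2.18 to -1.52) and for the Hedgehog co-receptor Boc at 0.104 (0.557 to 0.796), and its mitochondrial share differed by -0.284 percentage points (-0.0586 to 0.0448). C57BL6 was alone in holding more reads per ERCC read in cluster 8, by 0.287 on the log2 scale (-0.6 to -0.235).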

How the results depend on the processing

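Cilp kept its call in all 19 alternatives, Apoe lost it in 1 (without the block), Col6a3 in 2 and Sult1e1 in 3. Of genes not called in the pooled comparison, Gdf10 was called in 11, Aspn and C3 in 8 each and Igf1 in 7. Against the pooled clusters 0.153% of genes were called, 20 in number. The share was 0.0317% with sums per line (4 genes), 0.0729% with at least 3 cells (9), 0.1% without cluster 2 (13), 0.279% with clusters 4, 9 and 11 added (38), 1.94% with clusters weighted equally (86.8% of them higher, 37 genes lower), 0.422% with the median gene at 0 (55; 47 higher, 8 lower), 4.53% with DESeq2 (590; 29.2% higher), 2.17% with limma voom (63.3% higher) and 0.429% after thinning (46; 63% higher). Leaving out each combination gave 0.0241 to 0.377%: 51 genes without Cspg4dsRED, 14 without PdgfraGFP, 11 without Acta2GFP, 5 without C57BL6, and 7, 9 and 3 without PdgfrbGFP plates 074s, 515s and 881s. Replicate numbers follow accession order and pair nothing; without the replicate block of line and plate 0.199% were called (26; 15 higher, 11 lower).

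In the joint fit, at least 3 cells gave 0.567, 5.92, 0.38, 0.231 and 1.54% against clusters 1, 2, 3, 6 and 7. A fit per pair gave 0.325, 0.705, 0.147 and 1.25% against clusters 1, 2, 6 and 7. Leave-one-out ranges were 0.403 to 0.93%, 0.346 to 3.38%, 0.173 to 0.716%, 0.165 to 0.434% and 1.3 to 2.07%; the lowest was without PdgfrbGFP 881s except for cluster 6 (074s).

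With at least 3 cells, reads per ERCC read differed by -0.393, the ERCC share by 0.314 and genes at equal depth by -261 (adjusted p = 0.0391 each, exact permutation test). With the line as the unit the lowest adjusted p was 0.156 by the same test. None could pass there, as 5 lines allow no p below 0.0625. The mitochondrial difference was 0.0118 without cluster 2, and -0.0547 to 5.23e-05 leaving out each combination. Signs turned for Col1a1 (0.164) and Fbln1 (0.0675) with the median gene at 0, Col1a2 with equal weights (-0.0106) and without Cspg4dsRED (-0.0199; leave-one-out up to 0.171), and Cspg4 without the block (-0.436). The causes were not tested. Exons of 16 of the 94 named genes overlap another gene, so part of their reads cannot be told apart. The labels name no animals.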
